A study of Bos taurus with 10 samples.

Results

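Chromatin regulators and histone chaperones were followed in cattle, in RNA from IVF embryos (oocytes fertilized in a dish) and from 7 adult tissues, all hybridised to a human expression array. Members were taken from a list of 51 human gene symbols and found through probe sets (groups of short probes read as 1 value) that carried a single one of those symbols and had a value. Of the 51 genes, 44 had at least 1 such probe set, 77 probe sets in all, out of 6732 genes with a single symbol and a value. No value under their symbol was in the table used here for NAP1L4, HDAC1, CHD3, CBX5, SUV39H1, MBD1 and HMGB2. Another 7 genes, ASF1B, ANP32A, EZH2, L3MBTL1, SMARCB1, CBX3 and HMGA1, were too dim for the test, which asked for a value above the array's median on at least 3 of the 10 arrays. The remaining 37 members were tested, through 61 probe sets. The groups were 3 arrays of total RNA pooled from IVF embryos and 1 array for each of spleen, muscle, lung, liver, kidney, heart and brain. The labels give no strain, sex, stage of the embryos or size of the pools. They leave unsaid if the embryo arrays stand for 3 pools or for 1, so the spread between the embryo arrays may be technical. Each tissue stands on a single array, and the spread within the adult group is the spread between tissues. P-values against the 7 tissues as a group measure only these spreads between arrays. In whole tissue RNA, fewer cells of a type and less RNA per cell cannot be told apart.

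Chromatin regulators decide how tightly DNA is wrapped. Histone chaperones escort newly made histones to DNA, mostly during replication; remodellers use ATP to slide or evict nucleosomes; deacetylases, methyltransferases and demethylases change the marks on histone tails; and Polycomb complexes keep developmental genes silent. High mobility group (HMG) proteins bend or loosen the fibre. In mammalian embryos, the parental chromatin is rebuilt during cleavage from maternal and then embryonic stores, and adult tissues contain many cells that no longer divide.

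Intensities were quantile normalised, which gives every array the same distribution, and differences are given on the log2(intensity + 72) scale, which understates changes of dim probe sets. The brightest tested probe set, by its mean over all 10 arrays with the embryos included, stands for a gene. The third embryo array was less like the other embryo arrays, and muscle was nearer to it than to them. The Spearman correlation over the 10186 probe sets was 0.944 between the first and the second embryo array, but 0.831 and 0.880 between these and the third. The muscle array correlated with the third embryo array at 0.492 and with the other two at 0.426 and 0.405. Tissue markers were brightest in the array of their own label for 8 of 13 brain, 8 of 9 heart, 4 of 7 kidney, 10 of 13 liver, 4 of 8 lung, 14 of 16 muscle and 2 of 5 spleen genes with a value. Their summed intensity was highest in its own tissue for each of the 7 lists.

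In embryos against the 7 tissues, 15 of the 37 tested members rose and 2 fell (limma, Benjamini-Hochberg adjusted p under 0.05). Over the 4727 genes tested, 7.87% rose and 3.19% fell, and over the 6775 probe sets 8.87% rose and 3.22% fell. The median difference was 0.51 log2 over the members and 0.03 over all genes. Of all gene calls 71.1% were rises, or 83.1% with the values as deposited, where 16 members rose and 2 fell. The genes that rose were 6 histone chaperones or variants (NASP, NAP1L1, H2AZ1, CHAF1A, RBBP7 and ASF1A), SINHCAF and HDAC3 of the deacetylase complexes, the Polycomb genes JARID2, EED and SUZ12, the remodeller subunit SMARCE1, the demethylases KDM5B and KDM1A, and the acetyl-lysine reader BRD2. SMARCA2, a remodelling ATPase, and MBD2, a reader of methylated DNA, fell.

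The filter bears on the count of members that rose. Of the 37, 10 were above the array median on fewer than 3 tissue arrays and so were tested only because of the embryos, and 9 of those 10 rose, as did 33% of 648 such genes. The 9 members that rose were NASP, CHAF1A, ASF1A, SINHCAF, HDAC3, SUZ12, SMARCE1, KDM1A and KDM5B, with KDM5A the one that did not rise. The counts and medians of members and of their classes include these genes. Among the 27 members that passed on tissue arrays alone, 6 rose (NAP1L1, H2AZ1, RBBP7, JARID2, EED and BRD2) and 2 fell. Of 4079 such genes 3.87% rose and 3.70% fell. The pick of the brightest probe set still used the embryo arrays. For CHAF1A, H2AZ1 and BRD2 the tested probe set with the highest tissue mean was another one, and it did not pass (limma adjusted p = 0.0538, 0.0631 and 0.931). With the 3 embryo arrays averaged and counted as 1 sample, limma called 1 member, NASP, and 15 members had an unadjusted p under 0.05 (14 higher, 1 lower). Without the first or without the second embryo array 9 members rose, against 15 without the third and 13 without the third embryo array and muscle together; each of these 4 settings left 1 member lower.

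Markers of dividing cells moved with the same groups. Of 14 tested mitosis and replication genes 11 rose in embryos and none fell, and the summed intensity of the 15 with a value was 5518 to 6403 on the embryo arrays against 995 in muscle to 2614 in spleen. Markers of embryo lineages rose in 8 of 10 tested genes, and their sum was 9132 to 9436 on the embryo arrays and 941 to 1777 in tissues. By comparison, 7.87% of all genes tested rose, as did 33% of 648 genes tested only because of the embryos. How many of these markers were tested in that way was not counted. Both lists were chosen with earlier results of these data known. Of the cumulus and granulosa markers, cells that surround the oocyte, 6 of 14 had a value, none of the 3 tested was called, and their sum of 587 to 903 in embryos lay within the 425 to 1075 of the tissues. The part of dividing cells in the differences below was not tested.

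**Figure D1:**
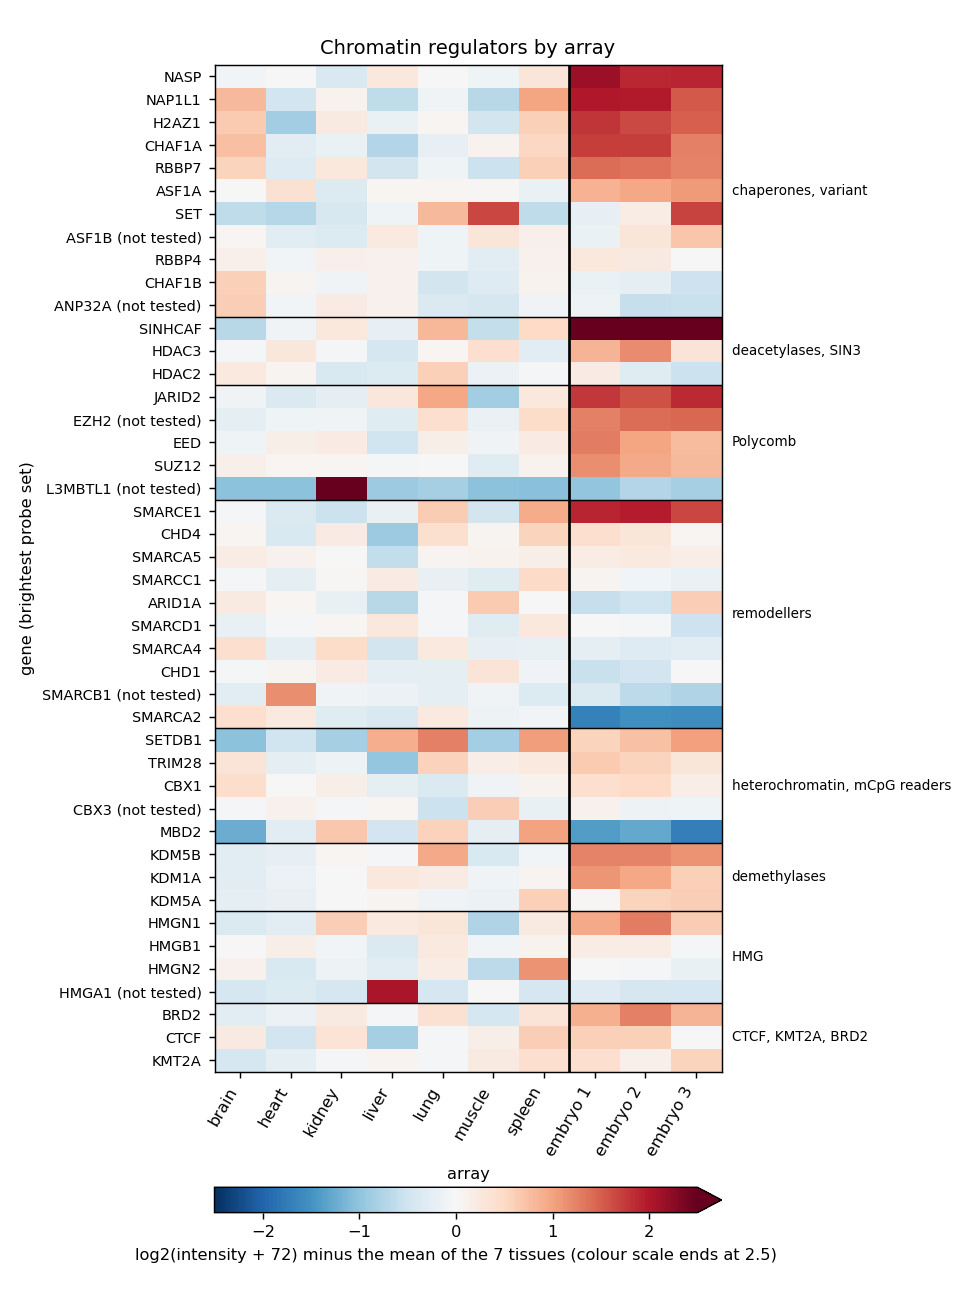
Each row is 1 of the 44 members with a value, each column 1 of the 10 arrays, and the colour is log2(intensity + 72) minus the mean of the 7 tissues for the brightest probe set, with classes divided by lines and untested members marked. The embryo columns are red for SINHCAF, NASP, NAP1L1, JARID2 and SMARCE1 and blue for SMARCA2 and MBD2, while SET is red in muscle and the third embryo array; the colour scale ends at 2.5.

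**Figure D2:**
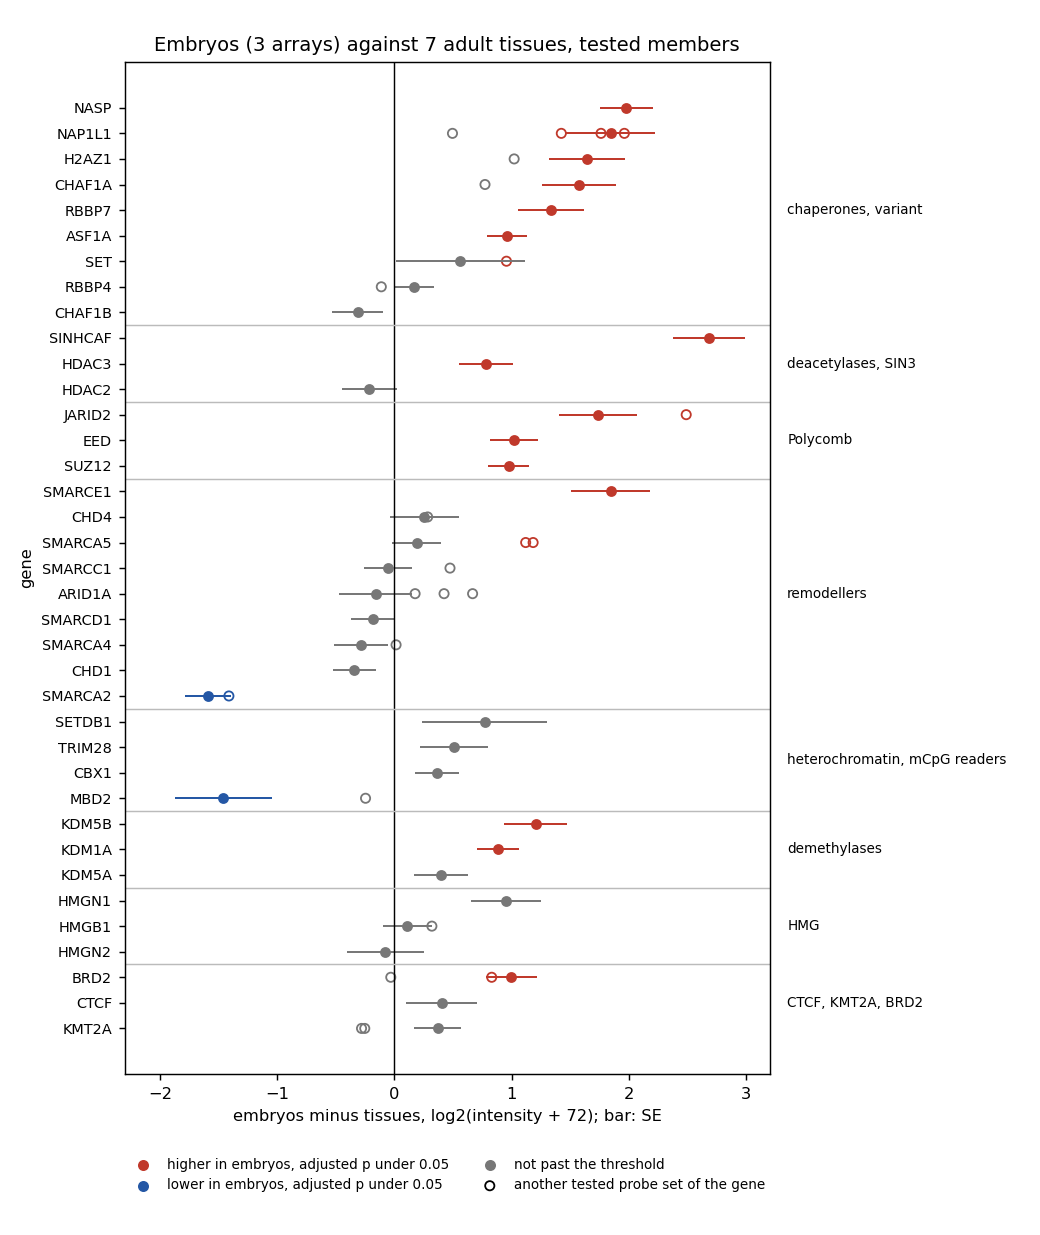
Differences of embryos minus tissues in log2(intensity + 72) are shown for the 37 tested members, with filled points for the brightest tested probe set, bars for the standard error and open points for other tested probe sets. Red and blue mark probe sets past an adjusted p of 0.05; they run from 2.68 for SINHCAF to -1.59 for SMARCA2, and the open points show that SMARCA5, SET, BRD2, CHAF1A, H2AZ1, NAP1L1 and MBD2 have tested probe sets that differ in their call.

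Of 9 tested histone chaperones and variants 6 rose, with a median of 1.33 log2, where 7.87% of all genes tested rose. Among them NASP, CHAF1A and ASF1A were tested only because of the embryos, and 33% of 648 genes tested in that way rose. RBBP7, NAP1L1 and H2AZ1 passed the filter on tissue arrays alone, and 3.87% of 4079 such genes rose. NASP, which stores and carries histones H3 and H4 outside the nucleosome, read 376, 304 and 307 on the embryo arrays, and 6.22 in kidney to 52.4 in spleen with a median of 29.1 over the tissues. It was dim in every tissue and well separated in embryos. The difference was 1.98 ± 0.23 log2 (SE, limma adjusted p = 0.000194), and NASP passed in each of the 21 alternatives run, including the averaged embryo arrays.

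NAP1L1, a carrier of histones H2A and H2B, was read by 5 probe sets. The brightest gave 1529, 1509 and 1088 in embryos and 174 in muscle, a median of 305 and 716 in spleen over the tissues. Every embryo value lay above every tissue, with a difference of 1.84 ± 0.38 log2 (SE, limma adjusted p = 0.00823). Of the other 4 probe sets, 3 rose by 1.42, 1.76 and 1.96, and the fifth had 0.50 (limma adjusted p = 0.0988). Brain at 624 and spleen at 716 were the tissues nearest to the embryos, and the call was lost without the first or the second embryo array. NAP1L4, its close relative, had no value.

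H2AZ1, a variant of histone H2A found at promoters, read 1757, 1598 and 1425 in embryos and 218 in heart to 761 in brain, with a tissue median of 482. The embryo values were all above the tissues, and the difference was 1.64 ± 0.32 log2 (SE, limma adjusted p = 0.00665). Its other probe set also separated the groups, at 973 to 1196 against 219 to 811, but did not pass (1.02 log2, limma adjusted p = 0.0631).

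CHAF1A and CHAF1B, subunits of chromatin assembly factor 1, which places new histones behind the replication fork, did not share a pattern. CHAF1A, the large subunit, read 329.8, 327 and 220.0 in embryos, and 1.35 in liver, a median of 35.4 and 131 in brain over the tissues. Its groups did not overlap, with a difference of 1.57 ± 0.31 log2 (SE, limma adjusted p = 0.00708). The call was lost at an offset of 1 (3.02 log2, limma adjusted p = 0.0878) and with the embryo arrays averaged (limma adjusted p = 0.311), and the other alternatives that tested CHAF1A gave adjusted p-values up to 0.049. Its other tested probe set had 0.77 log2 (limma adjusted p = 0.0538), with 161 to 225 in embryos and 45.1 to 148 in tissues. CHAF1B, the middle subunit, read 163, 153 and 113 in embryos and 121 in lung to 331 in brain, with a tissue median of 205. Its values overlapped, at -0.31 ± 0.22 log2 (SE, limma adjusted p = 0.38). RBBP7 binds histones in Polycomb and deacetylase complexes. It read 708, 681 and 626 in embryos and 130.4 in muscle to 376 in spleen, with a tissue median of 202. That difference was 1.33 ± 0.28 log2 (SE, limma adjusted p = 0.0097), with no overlap. RBBP4, its close relative, read 326, 315 and 260.4 against 199 in muscle to 291 in kidney (median 285), and did not pass at 0.17 ± 0.17 log2 (SE, short of the limma threshold). A probe set of RBBP4 that was less bright had -0.11 log2. RBBP7 lost its call without the first embryo array, without the second, and without the third together with muscle. Whether the members of these pairs differ from each other in their response, or share signal through like sequences, was not tested.

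ASF1A, which hands histones H3 and H4 to the assembly factors, read 276, 301 and 326 in embryos and 78.3 in kidney to 177 in heart, with a tissue median of 123. It rose by 0.96 ± 0.17 log2 (SE, limma adjusted p = 0.00362), with every embryo value above every tissue. ASF1B, the copy linked to dividing cells, was too dim to test: embryos read 79.9, 139 and 205, and tissues ran from 63.3 in kidney to 139 in muscle. Its embryo values overlapped the tissues.

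SET, a histone chaperone and phosphatase inhibitor, gave different answers through 2 probe sets. The brightest read 219, 311 and 1015 on the embryo arrays and 997 in muscle, 515 in lung and 133 to 239.5 in the other 5 tissues. The third embryo array and muscle stood out together there, and the difference was 0.56 ± 0.55 log2 (SE, limma adjusted p = 0.539), or -0.01 without the third embryo array. The other probe set read 582, 521 and 391 in embryos against 142 in muscle to 294 in kidney, and rose by 0.96 ± 0.22 log2 (SE, limma adjusted p = 0.0145). ANP32A, an acidic partner of SET, was not tested, with 76.4, 36.7 and 38.4 in embryos and 50.3 in muscle to 178 in brain on the probe set that stands for it.

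Of the histone deacetylases and their partners, SINHCAF had the largest difference of any member in its brightest tested probe set. Both SINHCAF and HDAC3 were tested only because of the embryos. SINHCAF, a subunit of the SIN3 deacetylase complex known from embryonic stem cells, read 957, 1008 and 935 in embryos and 27.9 in brain, a median of 80.6 and 215 in lung over the tissues. The 3 embryo values lay close together and every tissue was far below them. The difference was 2.68 ± 0.31 log2 (SE, limma adjusted p = 0.000194), and it missed the threshold in 1 of 21 alternatives, the averaged embryo arrays (limma adjusted p = 0.0507; the other alternatives were lower).

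HDAC3, the catalytic subunit of the nuclear corepressor complexes, read 259.6, 343 and 159 in embryos and 65.0 in liver to 173 in muscle, with a tissue median of 108. The third embryo array fell inside the tissue range. The difference of 0.78 ± 0.23 log2 passed narrowly (SE, limma adjusted p = 0.0448) and was lost in 13 of 20 alternatives. Leaving out brain, kidney, liver, lung, spleen, the first embryo array or the second embryo array was each enough to lose it. HDAC2, a deacetylase of the SIN3 and nucleosome remodelling complexes, read 209, 125 and 96.0 against 116 in kidney to 297 in lung (median 164), and did not pass at -0.21 ± 0.24 log2 (SE, limma adjusted p = 0.592). HDAC1, its close copy, had no value.

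All 3 tested Polycomb members rose, each with embryo values above every tissue. Over all genes tested 7.87% rose, and 11.0% had embryo values above every tissue. SUZ12 was tested only because of the embryos. JARID2, which guides Polycomb repressive complex 2 to its targets, was read by 2 probe sets that both passed. The brighter gave 887, 779.7 and 952 in embryos and 82.2 in muscle, a median of 195 and 484 in lung over the tissues, a difference of 1.74 ± 0.33 log2 (SE, limma adjusted p = 0.00556). The other read 1173, 1261 and 778 against 36.7 in muscle to 205 in brain, at 2.49 ± 0.28 log2 (SE, limma adjusted p = 0.000194). Muscle was the dimmest tissue on both probe sets, and the brightest tissue differed between them.

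EED, the subunit that reads the mark the complex makes, read 569.8, 454 and 389 in embryos and 117 in liver to 234 in spleen, with a tissue median of 221. Its difference was 1.02 ± 0.20 log2 (SE, limma adjusted p = 0.00708), and the call was lost without the first embryo array. SUZ12, the scaffold, read 282, 233 and 205 against 56.3 in muscle to 101 in brain (median 90.7), and rose by 0.97 ± 0.17 log2 (SE, limma adjusted p = 0.00407). EZH2, the methyltransferase of the complex, missed the filter, with fewer than 3 arrays above the array median. Its embryo values read 145, 165 and 172, above every tissue, where values ran from 1.84 in liver to 52.0 in spleen with a median of 11.8; the difference was 1.36 log2, with no test in the filtered fit, and with no filter EZH2 rose. L3MBTL1, a reader of methylated lysines, was not tested; one of its probe sets read 74.5, 76.7 and 64.7 in embryos and 63.3 in liver to 269 in heart.

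Of the 3 histone demethylases, KDM5B and KDM1A rose. All 3 were tested only because of the embryos, and 33% of 648 genes tested in that way rose. KDM5B, which removes methyl groups from lysine 4 of histone H3, read 273, 273 and 243 in embryos and 39.2 in muscle, a median of 66.0 and 207 in lung over the tissues. The difference was 1.20 ± 0.27 log2 (SE, limma adjusted p = 0.0133), with lung apart from the next tissue, kidney at 78.9. Its other probe sets, not tested, had -0.16 and -0.30 log2, with embryo values inside the tissue range. KDM1A, an oxidase that acts on the same residue in corepressor complexes, read 314, 275 and 198 against 74.8 in brain to 143 in liver (median 105), and rose by 0.89 ± 0.18 log2 (SE, limma adjusted p = 0.00745). KDM5A, a relative of KDM5B, read 105, 186 and 194 against 77.2 in brain to 192 in spleen, and did not pass at 0.40 ± 0.23 log2 (SE, limma adjusted p = 0.284). The calls of KDM5B and KDM1A were lost without the first or the second embryo array, and that of KDM5B also without the third together with muscle.

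**Figure D3:**
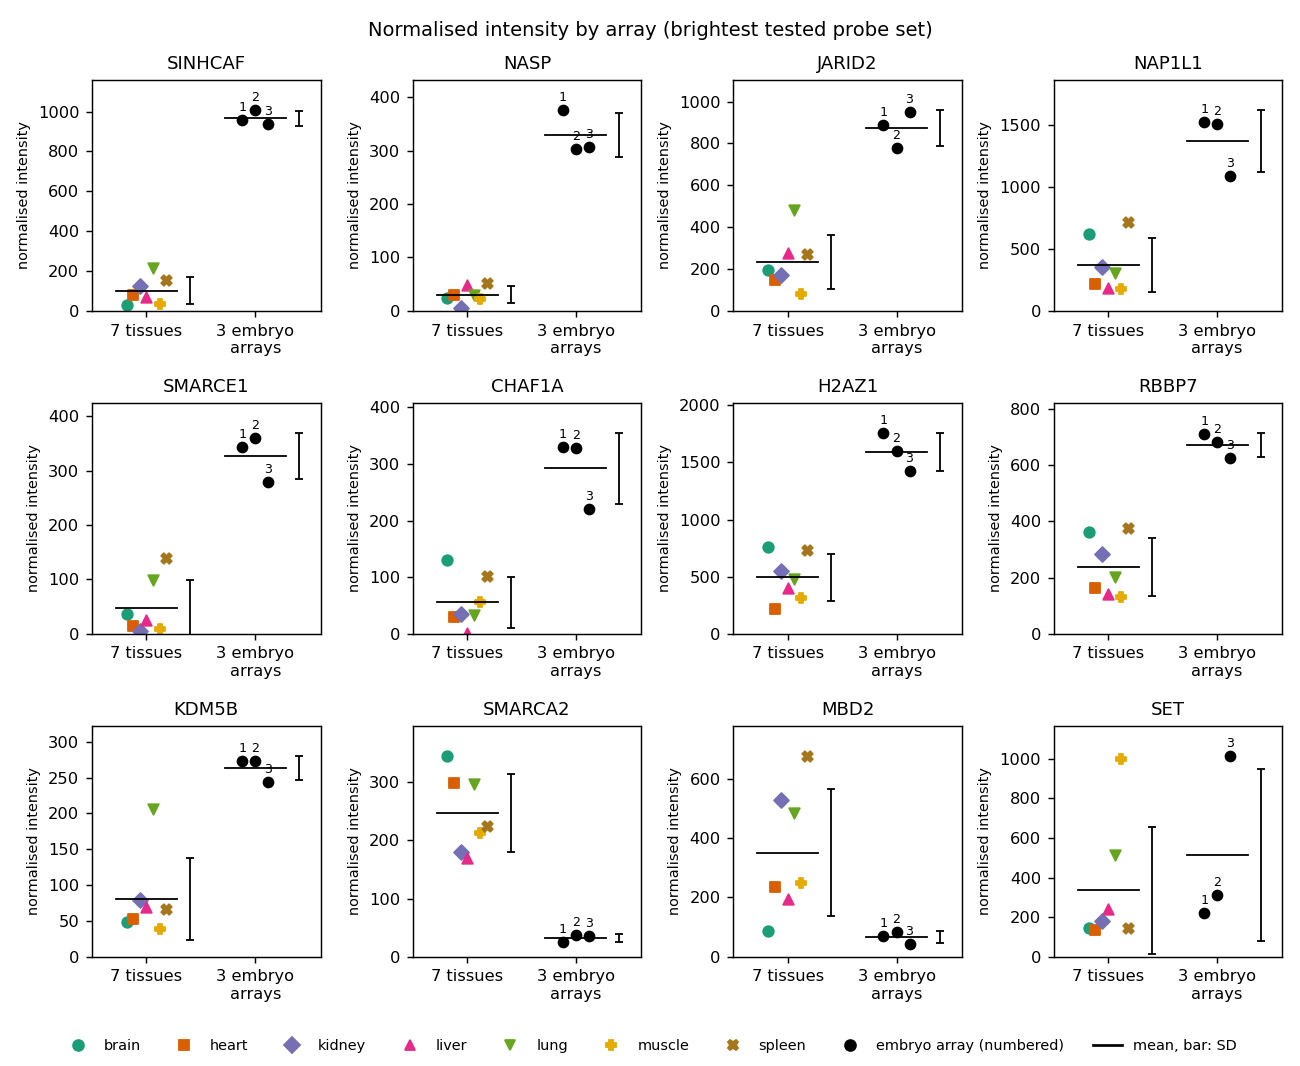
Normalised intensity on a linear scale is plotted for 12 members in their brightest tested probe set, with 1 symbol per tissue, numbered points for the 3 embryo arrays, lines for the means and bars for the SD (bars are clipped at 0). Embryo points lie above all tissues in the first 9 panels and below them for SMARCA2 and MBD2, while for SET the third embryo array at 1015 and muscle at 997 lie apart from the rest.

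Chromatin remodellers mostly did not pass: of 9 tested members, 1 rose and 1 fell, with a median of -0.16 log2. The shares of all genes tested were 7.87% and 3.19%. The 1 that rose was tested only because of the embryos. SMARCE1, a DNA-binding subunit of the SWI/SNF (BAF) complex, read 343, 359 and 278 in embryos and 4.61 in kidney, a median of 25.4 and 139 in spleen over the tissues. No tissue reached the embryos, and the difference was 1.84 ± 0.34 log2 (SE, limma adjusted p = 0.00461).

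SMARCA2 and SMARCA4 are the alternative ATPases of that complex. SMARCA2, usually linked to differentiated cells, read 24.7, 36.9 and 35.0 in embryos and 169 in liver, a median of 225 and 346 in brain over the tissues. It fell by 1.59 on the log2 scale (SE 0.20, limma adjusted p = 0.000341), with every embryo value below every tissue. A second probe set read 15.2, 6.87 and 6.21 against 75.2 to 289, and fell by 1.41 (limma adjusted p = 0.0128). SMARCA4, the ATPase of stem cells, read 219.9, 205 and 213 against 181 in liver to 407 in kidney (median 232), and did not pass at -0.29 ± 0.23 log2 (SE, limma adjusted p = 0.448). Its other probe set differed by 0.01 log2. The difference between the responses of SMARCA2 and SMARCA4 was not tested.

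The core subunits SMARCC1 and SMARCD1 had differences of -0.05 and -0.19 log2 with overlapping values, and both turned positive with the values as deposited. SMARCC1 read 286 to 350.3 in embryos and 256 in muscle to 489.8 in spleen. Its 2 other probe sets had 0.47 log2, not called (limma adjusted p = 0.264), and 0.62 log2, not tested. SMARCD1 read 126 to 208 in embryos and 155 in muscle to 267 in spleen. SMARCB1, a further core subunit, was not tested; it read 46.2, 24.8 and 18.4 in embryos and 47.9 to 72.7 in 6 tissues, with 270.1 in heart.

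SMARCA5, the ATPase of the ISWI complexes, was uneven across probe sets. The brightest read 406, 426 and 401 in embryos and 204 in liver to 408 in brain, a difference of 0.19 ± 0.21 log2 that did not pass (SE, limma adjusted p = 0.582). Its other probe sets rose by 1.18 and 1.12 log2 (limma adjusted p = 0.00765 for each), with 344 to 530.2 in embryos and 98.6 to 317 in tissues. So SMARCA5 counts as not called by the brightest probe set alone, and it rose where all probe sets of a gene were averaged.

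ARID1A, a DNA-binding subunit of BAF, was brightest on the same arrays as SET. It read 149, 162 and 433 in embryos, and muscle, at 446, was the brightest tissue in a range from 132 in liver. The difference was -0.16 ± 0.31 log2 (SE, limma adjusted p = 0.781), or 0.02 with the values as deposited, and its 3 other probe sets had 0.18, 0.42 and 0.67, none past the threshold. CHD1, a remodeller that reads active promoters, read 88.5, 97.1 and 162 against 128 to 219.9 (-0.34 log2), again with the third embryo array and muscle the brightest of their groups. CHD4, the ATPase of the nucleosome remodelling and deacetylase complex, read 468, 426 and 347 against 143 in liver to 521 in spleen (0.26 log2). Neither passed.

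Among heterochromatin proteins and readers of methylated DNA, 1 of 4 tested members was called, and it fell, as did 3.19% of all genes tested. MBD2, which recruits deacetylases to methylated DNA, read 71.2, 81.9 and 42.8 in embryos and 85.7 in brain, a median of 248 and 678 in spleen over the tissues. Embryos were below every tissue, although brain at 85.7 was close to the second embryo array. MBD2 fell by 1.46 on the log2 scale (SE 0.41, limma adjusted p = 0.0392), and the call was lost in 11 of 21 alternatives. Leaving out heart, kidney, lung, muscle or any 1 of the embryo arrays lost it. Its 2 other probe sets read 119 to 132 and 100.3 to 117 in embryos against 129.5 to 216 and 70.7 to 145 in tissues, at -0.25 and 0.05 log2.

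SETDB1, the methyltransferase that marks heterochromatin and silenced retroelements, read 443, 506 and 636 in embryos. Over the tissues it split, with 587 in liver, 647 in spleen and 766 in lung, and 100.1 to 174 in brain, muscle, kidney and heart. A second probe set of SETDB1, which missed the filter, ran otherwise, with 346 in brain, its brightest tissue, 72.9 in spleen, 47.3 in lung and 27.0 in liver, its dimmest. It read 55.2 to 76.7 in embryos, at -0.22 log2. The tested probe set differed by 0.77 ± 0.53 log2 (SE, limma adjusted p = 0.374). TRIM28, the corepressor that brings SETDB1 to its targets, read 345, 318 and 257 against 63.3 in liver to 325 in lung, at 0.51 ± 0.29 log2 (SE, limma adjusted p = 0.278). CBX1, a heterochromatin protein 1, read 235, 252 and 182 against 106 in lung to 237 in brain, at 0.36 ± 0.19 log2 (SE, limma adjusted p = 0.235). CBX3, another member of that family, was not tested and read 87.6 to 116 against 48.4 to 194. The third member, CBX5, had no value.

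No HMG gene passed. HMGN1, which loosens chromatin by binding nucleosomes, read 657, 842 and 517 in embryos and 153 in muscle, a median of 372 and 505 in kidney over the tissues. Its embryo values lay above every tissue, the nearest gap being 517 against 505, and the difference of 0.95 ± 0.30 log2 missed the threshold (SE, limma adjusted p = 0.0575). A second probe set of HMGN1, not tested, overlapped, at 88.9 to 111 in embryos and 63.0 in spleen to 314 in heart (-0.33 log2). HMGN2, its relative, read 589, 573 and 516 against 353 in muscle to 1382 in spleen (median 538), with a difference of -0.08 ± 0.33 log2 (SE, limma adjusted p = 0.9). HMGB1, an abundant DNA-bending protein, had overlapping values: 2217, 2217 and 1902 in embryos and 1503 in liver to 2308 in lung, a difference of 0.11 ± 0.21 log2 (SE, limma adjusted p = 0.777). The direction for HMGB1 turned with arrays scaled to a common median, and that for HMGN2 with the values as deposited or without spleen. HMGB2 had no value, and the HMGA1 probe set read 1.38 to 6.98 in embryos.

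BRD2, which binds acetylated histones, rose on 2 of 3 probe sets. The first read 351, 475 and 337 in embryos and 96.3 in muscle to 226 in lung, with a tissue median of 148, a difference of 1.0 ± 0.22 log2 (SE, limma adjusted p = 0.0109) that was lost without the second embryo array. Another rose by 0.83 (limma adjusted p = 0.0322), and the last read 171 to 225 against 149.7 to 282, at -0.03. CTCF, the insulator protein, read 472, 467 and 291 against 129 in liver to 474 in spleen (0.40 log2, limma adjusted p = 0.417). KMT2A, a methyltransferase of active promoters, read 289, 224 and 329 against 130.5 in brain to 289 in spleen (0.37 log2, limma adjusted p = 0.263), while its 2 other probe sets had -0.25 and -0.28.

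The filter also bears on counts of values that did not overlap. In 15 of 37 members all 3 embryo values lay above all 7 tissues, and in 2 below, where 11.0% and 6.77% of the genes tested did so. Those above were 14 of the 15 that rose together with HMGN1, since HDAC3 overlapped. Of these 15, 8 were tested only because of the embryos. Among the 27 members that passed on tissue arrays alone, 7 lay above all tissues (6.99% of such genes) and 2 below (7.85%).

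Each tissue was then set against the embryos in a fit with 8 groups, whose spread comes from the embryo arrays alone, with each tissue array assumed to vary like them. The 7 comparisons share the embryo arrays, so they are not independent. Members higher in embryos numbered 15 against brain (15.8% of all genes tested), 16 against heart (16.5%), 12 against kidney (11.5%), 18 against liver (19.2%), 10 against lung (11.0%), 16 against muscle (19.5%) and 10 against spleen (8.31%). Members lower in embryos numbered 3 against brain, kidney and spleen and 2 against the other tissues, where 12.4%, 12.7% and 9.44% of all genes were lower than brain, kidney and spleen, and 15.5%, 10.6%, 11.2% and 13.1% lower than heart, liver, lung and muscle. Over the 259 pairs of member and tissue, 97 were higher (37.5%) and 17 lower (6.56%), against 14.5% and 12.1% of all pairs of gene and tissue. For the 27 members that passed on tissue arrays alone, 47 of 189 pairs were higher (24.9%) and 17 lower (8.99%), against 10.5% and 13.9% of the pairs of such genes. Without the second embryo array 41 pairs were higher and 7 lower, and without the third 130 and 26.

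RBBP7, NASP, H2AZ1, SINHCAF, SUZ12, JARID2 and SMARCE1 were higher in embryos than in each of the 7 tissues. ASF1A, CHAF1A, NAP1L1 and KDM5B were higher than 6 of 7: heart was the exception for ASF1A, brain for CHAF1A, spleen for NAP1L1 and lung for KDM5B, which are the brightest tissues of those genes. Of the members named so far here, NASP, SINHCAF, SUZ12, SMARCE1, ASF1A, CHAF1A and KDM5B were tested only because of the embryos. SMARCA2 was lower than all 7 and MBD2 than 6, the exception being brain. The shares of all genes called against 6 or 7 tissues were not counted. Among members not called against the tissues as a group, SMARCA4 was lower than brain and kidney, CHAF1B lower than brain and HMGN2 lower than spleen. SETDB1 was higher than brain, heart, kidney and muscle, and HMGN1 higher than brain, heart and muscle. SMARCA5, CHD4, CTCF and HDAC3 were called higher against liver, and TRIM28 against liver and heart. HDAC3 was 1.21 log2 above liver (8-group limma adjusted p = 0.0484) and 1.05 above spleen, which was not called (adjusted p = 0.0987). Whether a difference from one tissue exceeds that from another was not tested for any member.

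**Figure D4:**
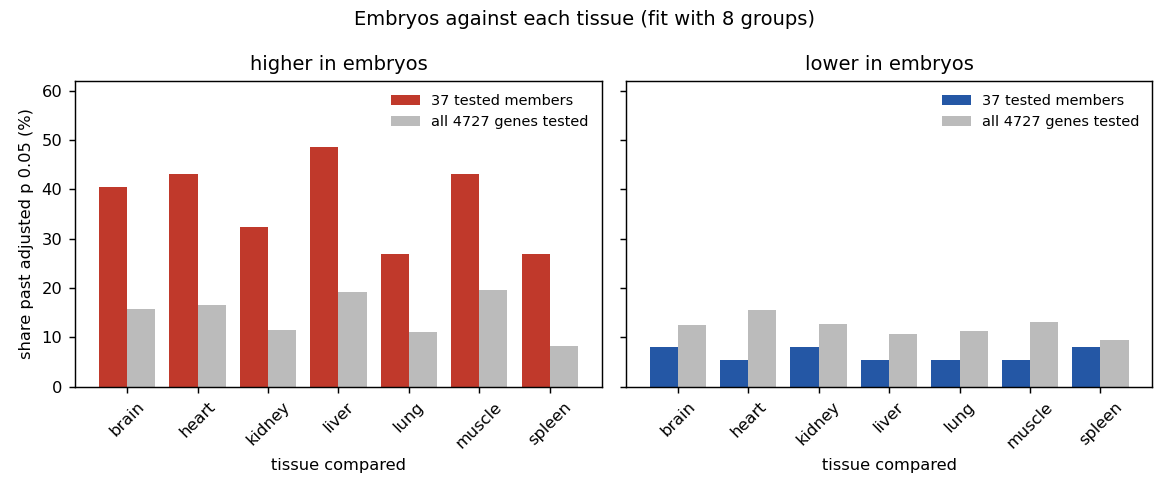
Bars give the percentage of the 37 tested members (coloured) and of all 4727 genes tested (grey) called higher (left) or lower (right) in embryos against each tissue, at an adjusted p of 0.05 in the fit with 8 groups. The member share higher in embryos runs from 27% against lung and spleen to 48.6% against liver, and grey bars run from 8.31% to 19.5%.

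Among the adult tissues themselves, there was 1 array each and therefore no test. The median SD over the 7 tissues was 0.34 log2 for members and 0.42 for all genes tested, beside a median SD of 0.18 and 0.17 over the 3 embryo arrays. Among genes that passed on tissue arrays alone it was 0.36 for members and 0.43 for all. The offset and filter moved both values, to 0.19 and 0.24 at the larger offset, 0.49 and 0.59 at an offset of 1, and 0.476 and 0.479 with the filter at the 75th percentile; with the values as deposited they were 0.44 and 0.46. Brightest and dimmest tissue were 4-fold apart or more for 3 of 37 members, against 17.6% of all genes, and these 3 were among the 27 that passed on tissue arrays alone (18.5% of such genes). Spleen was the brightest tissue for 13 members (16.4% of all genes), lung for 8 (11.9%) and brain for 7 (13.2%). The rest were brightest in muscle (4, against 15.5%), kidney (3, 15.3%), heart (1, 14.1%) or liver (1, 13.7%). Muscle and liver were each the dimmest tissue for 11 members (18.5% and 24.0% of all genes), brain for 6 (16.9%), kidney for 4 (7.62%), lung for 3 (11.9%), heart for 2 (11.6%) and spleen for none (9.54%). As a median over the 37 members, spleen lay 0.24 log2 above the mean of the tissues and liver, heart and muscle 0.21, 0.18 and 0.15 below it. For all genes tested, spleen lay 0.04 above, while liver, heart and muscle were lower by 0.12, 0.04 and 0.07. Dividing-cell markers, at 2614 in spleen, were also brightest there among the tissues, and their part in this order was not tested.

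Single tissues stood at least 2-fold from the mean of the other 6 in 10 cases above and 7 below. In spleen 5 members were that much higher (4.89% of all genes): HMGN2 (1382 against a mean of 524 in the others), SETDB1, MBD2, NAP1L1 and SMARCE1. Lung held 3, JARID2, SETDB1 and KDM5B (5.16%), muscle 1, SET (5.03%), and liver 1, SETDB1 (4.68%). Lower by that much were MBD2 and SETDB1 in brain (4.89%), CHD4 and TRIM28 in liver (8.29%), JARID2 and SETDB1 in muscle (5.90%) and H2AZ1 in heart (3.24%). No member was 2-fold higher in brain (4.93%), heart (5.37%) or kidney (4.99%), or 2-fold lower in kidney (1.48%), lung (2.96%) or spleen (2.64%). SETDB1 supplied 5 of the 17 cases, all from its tested probe set; in its other probe set brain was the brightest tissue and liver the dimmest. These counts depend on the offset, with 21 above and 20 below at an offset of 1 and 2 and 0 at one 4 times larger.

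**Figure D5:**
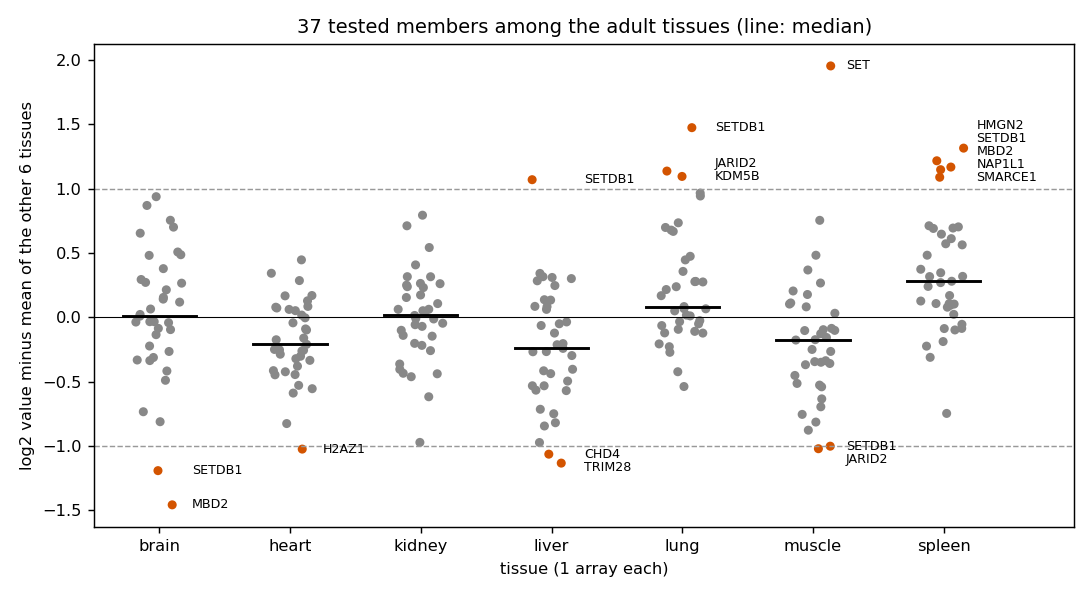
For each adult tissue, points give the 37 tested members as the log2 value in that tissue minus the mean of the other 6, with a line at the median and dashed lines at 2-fold. Orange points with names are the 17 at least 2-fold away, 5 of them above in spleen and 3 above in lung.

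Several probe sets left out by the filter were bright in 1 tissue and dim on the other arrays. In liver, a probe set of ANP32A read 559, a pair for KDM5B read 505 and 456, and that of HMGA1 read 331, where the other 6 tissues and the embryos read at most 10.1, 34.2, 25.6 and 25.4. In liver too, a second probe set of SMARCD1 read 938, with 61.0 to 94.1 elsewhere. In kidney, a probe set of L3MBTL1 read 8428 and at most 17.4 on the other arrays. The tested probe set of SMARCD1 read 267 in both liver and spleen, and that of KDM5B read 69.1 in liver, below lung and kidney. Whether these signals come from the named genes was not tested.

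Other chromatin genes of the same classes gave 96 genes with a value out of 162 and 78 tested. Of these 13 rose and 4 fell, with a median of 0.23 log2, beside the 7.87% and 3.19% of all genes. SIRT1, PRMT5 and HMGB3, which rose, were below the array median in every tissue (at most 64.8, 128 and 108). They were tested only because of the embryos, and 33% of 648 genes tested in that way rose. How many of the 78 were tested in that way was not counted. Without the first or the second embryo array 5 and 4 of the 78 rose. Leaving out heart, lung or spleen alone left 2 that fell. None fell without any 1 of the embryo arrays (7 lower at an unadjusted limma p under 0.05 in each case). Among 11 further chaperones and variants, ANP32E, which removes the variant H2A.Z, rose most, from a tissue mean of 95.2 ± 63.6 (SD, n = 7) to 406 ± 65.5 (SD, n = 3), a difference of 1.59 log2 (limma adjusted p = 0.00516). NPM1, nucleophosmin, and H2AZ2, the sister of H2AZ1, rose as well. NPM3, a relative of NPM1, had the largest fall (-1.07 log2, limma adjusted p = 0.0276), and MACROH2A1, a variant of silent chromatin, also fell.

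Of 12 further tested genes of deacetylase complexes 1 rose and 1 fell: SIRT1, a deacetylase that needs NAD, rose by 1.45 log2 (268 ± 7.60 in embryos, SD, n = 3, against 53.1 ± 10.4 in tissues, SD, n = 7; limma adjusted p = 0.000525), and HDAC9, a class IIa deacetylase of muscle and brain, fell by 1.78 (limma adjusted p = 0.0374). Of 8 other remodeller subunits, ACTL6A, an actin-related subunit of BAF, rose by 1.25 log2 (limma adjusted p = 0.000973), DPF2 rose and CHD9 fell by 0.79 (limma adjusted p = 0.0291). Of 9 other demethylases, KDM4A, which acts on lysines 9 and 36 of histone H3, rose by 1.61 log2 (limma adjusted p = 0.00201) and KDM3A rose. Among 14 acetyltransferases and acetyl readers HAT1, which acetylates new histone H4, rose by 1.29 (limma adjusted p = 0.0116), as did BRD8. PHF1 was the gene called among 10 other Polycomb genes (0.59 log2, limma adjusted p = 0.027), PRMT5 among 4 methyltransferases and readers (1.14, limma adjusted p = 0.016) and HMGB3 among 3 other HMG genes (0.98, limma adjusted p = 0.0133), all higher in embryos. Some other Polycomb genes missed the filter and had no test. Of these CBX7 read 0.58 to 1.30 in embryos and 3.28 to 249 in tissues, at -1.18 log2. CBX6 and CBX2 had -1.17 and -0.22 log2, with overlapping values. None of 7 cohesin and condensin genes passed limma, with a median of 0.22 log2.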

How the data were processed

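For every probe set, the authors deposited a linear intensity on each array. Their software and scaling were not given in the sources used here. In all, of 22283 probe sets 12064 were blank and 33 were controls, leaving 10186, of which 8847 carried 1 gene symbol in the platform annotation. Because the 2% trimmed means of the arrays differed by 1.90-fold, above a limit of 1.5, the values were quantile normalised and log2(value + 72) taken, 72 being the typical lower quartile of the arrays. The test took the 6775 probe sets, of 4727 genes, that exceeded the array median on 3 or more of the 10 arrays, with limma 3.58.1 in R 4.3.3 (lmFit, eBayes with trend and robust, two-sided, Benjamini-Hochberg over all 6775). Figures were drawn with Python 3.11.15 and matplotlib 3.10.9. The median deposited intensity ran from 99.3 in liver to 221 on the third embryo array, and the number of arrays limits the precision.

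The embryos were compared with the 7 tissues as a group and, in a fit with 8 groups whose spread has 2 residual degrees of freedom before moderation, with each tissue; tissues were compared among themselves at 2-fold with no test. All arrays' values are given for up to 4 called members per class, every member called lower and fixed pairs of relatives; of the other chromatin genes, the largest difference past the threshold in each direction per list is given. Other members and second probe sets were described after their values were seen. The members, gene lists and marker lists were chosen with earlier results of these data known. Alternatives varied the scaling, offset, filter, probe set rule, eBayes options, fold limit, counting of the embryo arrays and the arrays included. A simulation drew every array, embryos included, at the spread of the probe set between tissues. The comparison with 7 tissues then recovered 28 of 67 planted changes of 1 log2, 55 of 67 of 2 log2 and 64 of 66 of 3 log2. It gave 6 false calls over 6775 probe sets. For 1 tissue in the fit with 8 groups, every array was drawn at the spread between embryo arrays. The numbers were 13 of 67, 44 of 67 and 51 of 66, with 2 false calls. In the data the 2 spreads differ (median SD 0.42 log2 between tissues and 0.17 between embryo arrays, all genes). The recovery in the real design was therefore not measured.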

Additional observations from a re-analysis of the deposited data

Results flagged for a closer look

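In 4 of 37 tested members, 1 tissue lay far from the other 6, by Dixon's ratio of the gap to the nearest tissue over the whole range; chance alone gives about 1 in 20 groups, and 7.89% of the 4727 genes tested passed the same ratio. SUZ12 was low in muscle, at 56.3 against 82.5 in liver, the next lowest (ratio 0.622). SMARCA5 was low in liver, at 204 against 354 in kidney (ratio 0.785). KDM5A was high in spleen, at 192 against 111 in liver (ratio 0.637). KDM5B was high in lung, at 207 against 78.9 in kidney (ratio 0.668).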

How the results depend on the processing

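No paired analysis was possible because each tissue has 1 array and the labels link no embryo array to a tissue array. Members higher in embryos numbered 15, but 1 with the embryo arrays averaged as 1 sample, and 9 to 15 with 1 array left out. Members lower in embryos numbered 2, but 1 with an offset 4 times larger, with no filter or with muscle and the third embryo array left out, 0 with the embryo arrays averaged (limma, 1 at an unadjusted p under 0.05), and 1 to 2 with 1 array left out. Of the other chromatin genes 13 rose, but 0 with averaged embryo arrays (limma, 11 at an unadjusted p under 0.05), 5 with muscle and the third embryo array left out, and 4 to 16 with 1 array left out. Of the same genes 4 fell, but 1 with the values as deposited or with those 2 arrays left out, 2 with a 2-fold limit, 0 with averaged embryo arrays (limma, 0 at an unadjusted p under 0.05), and 0 to 4 with 1 array left out.

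Calls against single tissues were 97 higher, or 41 to 130 with 1 embryo array left out, and 17 lower, or 11 with the values as deposited and 7 to 26 with 1 embryo array left out. Tissues 2-fold above the other 6 numbered 10, but 21 at an offset of 1, 2 at an offset 4 times larger and 6 with probe sets averaged. Those 2-fold below numbered 7, but 20, 0 and 4 in the same settings and 12 with no filter. The values as deposited moved the median of all genes from 0.03 to 0.21 log2.

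No called member changed direction in the alternatives run. Among uncalled members that did, SET ran from -0.0080 (without the third embryo array) to 0.95 log2 with 1 array left out. SMARCC1 had 0.14 as deposited and 0.21 with probe sets averaged, and ran from -0.12 to 0.027 with 1 array left out (0.0016 without the third embryo array). ARID1A had 0.018 as deposited and 0.28 with probe sets averaged, and ran from -0.55 to 0.052 with 1 array left out (0.011 without the second embryo array). HMGN2 had 0.092 as deposited and ran from -0.19 to 0.11, the latter without spleen. SMARCD1 had 0.011 as deposited, HMGB1 -0.14 at a common median, and KMT2A -0.055 with probe sets averaged. HMGN1 passed as deposited, with the larger offset, with the filter at the 75th percentile and without kidney. The causes were not tested. Human probes on bovine RNA limit which genes give a signal, and dim probe sets have compressed differences.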
